A study of Mus musculus with 16 samples.

Results

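Many immediate early and stress response genes are transcribed within minutes of a stimulus, before any new protein is made. The group described here holds 33 gene symbols, and 32 of them had a transcript cluster of their own among 18302 mouse genes measured with 1 cluster per symbol. A transcript cluster is the array's unit for a gene. Clusters were matched by the platform annotation, and the cluster with the highest mean over all 8 arrays stood for its symbol. Hspa1b had no cluster with its symbol alone, so it was not analysed here. Its product is nearly identical to that of Hspa1a, and the values of Hspa1a are uncertain where a probe binds both.

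Glomeruli, the filtering units of the kidney, were taken from mouse embryos at E18.5, late in gestation, by perfusion with magnetic beads and magnetic separation, and total RNA was hybridised to exon arrays. A set of 4 wild-type embryos was compared with 4 embryos that the labels call Frasier, mutants of wt1(+KTS), the form of the transcription factor WT1 with an insert of the amino acids lysine, threonine and serine. Both genotypes had a mixed C57Bl6 and DBA2 background and no special treatment, and the comparison asks which transcripts differ when this form of WT1 is altered. The labels do not give zygosity, litter or sex, nor do they say that the embryos came from separate litters, so the p-values below measure the spread between these arrays. Wild-type replicate 4 and Frasier replicate 1 each carry a letter of their own in the sample code. The other 3 arrays of each genotype share a letter, and no letter occurs in both genotypes. What the letter marks is not given, and it cannot be told apart from genotype.

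Signals from growth factor receptors, mechanical strain and cell stress reach many of these genes through MAP kinases. In the promoters of such genes, MAP kinase signalling activates partners of SRF at the CArG box and CREB at the cyclic AMP response element. The first products are transcription factors of the FOS, JUN and EGR families, which switch on later genes. A further set, among them the dual specificity phosphatases and Zfp36, shuts the response down by removing phosphate from MAP kinases or by destroying the messenger RNAs. Preparing tissue as live fragments is known to induce the same genes, and how far the isolation of glomeruli moved them was not measured.

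The promoters of 6 genes are shown because each holds a binding motif by which such genes are known to be switched on. Each is the RefSeq window of GRCm38.p6 from 250 bases before to 50 bases after an annotated start, read in the direction of the gene, with the named motif in capitals. Egr2, Dusp5 and Zfp36 carry the CArG box, the site of SRF. Dusp5 carries 2 of them side by side. Maff carries TGACGTCA, the site of CREB, Csrnp1 carries TGAGTCA, the site of AP-1, at 2 places, and Hspa1a carries a pair of inverted GAA and TTC units, the core of the site of the heat shock factor HSF1.
Egr2 (chr10:67537619-67537918, + strand): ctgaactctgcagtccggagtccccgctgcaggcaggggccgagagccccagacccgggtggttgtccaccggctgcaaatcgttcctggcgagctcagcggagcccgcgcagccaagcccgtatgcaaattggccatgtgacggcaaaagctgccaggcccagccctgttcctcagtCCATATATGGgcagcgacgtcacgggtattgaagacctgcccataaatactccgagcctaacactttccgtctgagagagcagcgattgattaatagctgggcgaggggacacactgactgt
Dusp5 (chr19:53528895-53529194, + strand): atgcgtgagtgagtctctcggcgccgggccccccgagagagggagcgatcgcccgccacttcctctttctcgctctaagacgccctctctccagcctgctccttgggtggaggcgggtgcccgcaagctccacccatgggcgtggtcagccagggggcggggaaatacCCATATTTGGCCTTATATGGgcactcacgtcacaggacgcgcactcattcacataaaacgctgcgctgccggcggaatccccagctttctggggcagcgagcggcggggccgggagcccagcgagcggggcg
Zfp36 (chr7:28379179-28379478, − strand): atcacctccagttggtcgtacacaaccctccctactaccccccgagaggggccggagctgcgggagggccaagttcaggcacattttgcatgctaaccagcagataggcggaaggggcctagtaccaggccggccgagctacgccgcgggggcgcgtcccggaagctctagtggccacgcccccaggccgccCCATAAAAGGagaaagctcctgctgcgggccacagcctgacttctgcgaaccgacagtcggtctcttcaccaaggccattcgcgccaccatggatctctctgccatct
Maff (chr15:79347270-79347569, + strand): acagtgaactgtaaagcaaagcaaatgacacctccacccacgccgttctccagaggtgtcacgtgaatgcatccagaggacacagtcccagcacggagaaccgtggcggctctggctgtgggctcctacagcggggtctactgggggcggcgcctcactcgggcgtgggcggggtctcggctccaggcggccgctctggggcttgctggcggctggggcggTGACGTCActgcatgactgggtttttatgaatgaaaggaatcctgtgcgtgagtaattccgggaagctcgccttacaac
Csrnp1 (chr9:119982974-119983273, − strand): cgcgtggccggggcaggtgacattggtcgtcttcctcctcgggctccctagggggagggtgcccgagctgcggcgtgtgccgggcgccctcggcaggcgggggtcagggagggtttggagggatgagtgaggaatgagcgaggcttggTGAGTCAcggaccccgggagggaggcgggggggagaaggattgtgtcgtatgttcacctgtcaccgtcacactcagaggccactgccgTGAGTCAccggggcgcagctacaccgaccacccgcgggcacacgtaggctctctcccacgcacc
Hspa1a (chr17:34972107-34972406, − strand): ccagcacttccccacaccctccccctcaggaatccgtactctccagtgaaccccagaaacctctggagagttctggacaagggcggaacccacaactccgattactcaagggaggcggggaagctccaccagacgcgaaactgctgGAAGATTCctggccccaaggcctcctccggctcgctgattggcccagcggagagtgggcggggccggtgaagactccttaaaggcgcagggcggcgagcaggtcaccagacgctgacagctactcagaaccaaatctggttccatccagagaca

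Windows were given for 28 of the 33 listed genes, 37 in all, since a gene can have several starts. Each motif was searched on both strands. The CArG box was found in 3 of the 28 genes (Dusp5, Egr2 and Zfp36), or 10.7%, against 1.81% of 27025 mouse genes with a window. Egr2 has 4 such windows. The box shown lies in 3 that overlap each other, and the fourth, which overlaps none of them, holds a different CArG box. The cyclic AMP response element TGACGTCA was also found in 3 genes (Btg2, Dusp1 and Maff), or 10.7%, against 2.03% of all genes. The site of EGR proteins, GCGGGGGCG, which the form of WT1 without the insert is also known to bind, was found in 7 genes (Fosb, Fosl2, Klf2, Klf4, Nr4a1, Socs3 and Zfp36), or 25%, against 3.31% of all genes. The AP-1 site TGANTCA was found in 1 gene, Csrnp1, or 3.57%, against 8.97%. The pair GAANNTTC was found in 4 genes (Fosl2, Hspa1a, Hspa1b and Jun), or 14.3%, against 9.04%. These matches are counts of letters. The base composition of the windows was not compared, and no binding was measured.

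The deposited values are log2 signals, so a difference of 1 is a doubling. Wt1 itself stood at 9.09, 8.95, 9.04 and 8.97 on wild-type replicates 1 to 4 and at 8.77, 8.86, 9.02 and 8.97 on Frasier replicates 1 to 4. The genotypes overlapped, with a difference of −0.11 ± 0.11 (SE, n = 4 per genotype, exact permutation p = 0.2, two-sided, smallest possible 0.0286). The insert could not be placed on a probe set, so these values do not check the genotype labels. Wild-type replicate 4 stood apart from the other arrays, with correlations of 0.869 to 0.918 over all clusters.

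At the gene level most early response genes had a higher mean in the Frasier arrays, but limma called 0 of 32 at an adjusted p under 0.05. Over all 93623 clusters 774 were called (0.827%), and over 18302 genes with 1 cluster per symbol 265 (1.45%). The log2 difference was positive for 27 genes and negative for 5, with a median of 0.20, against 56.6% positive and a median of 0.032 over 18302 genes. Nearly all of the group is well expressed, with 30 of 32 at or above the median level of all genes, 6.98. Fosl1 and Ier5 lay below that level. Among the 9151 genes at or above that level, 66.2% were positive and the median was 0.080. An unadjusted p under 0.05 was found for 12 of the 32, all higher in Frasier, against 10.8% higher and 5.78% lower among all genes. All 4 Frasier arrays lay above all 4 wild-type arrays for 14 genes and below for 0, against 11.9% above and 5.58% below among all genes. The 14 were Fosl1, Fosl2, Egr2, Egr3, Atf3, Maff, Myc, Csrnp1, Ier5, Gadd45b, Dusp5, Dusp6, Zfp36 and Rhob. In bulk RNA of isolated glomeruli, fewer cells of a type and less RNA per cell cannot be told apart. On simulated data of this size, 50 clusters drawn at random from all 93623 were changed by each fold. Limma called 6% of those changed 1.5-fold and 48% of those changed 2-fold. Rates for clusters as bright as those of the group were not computed. Every difference in the group was under 2-fold.

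**Figure D1:**
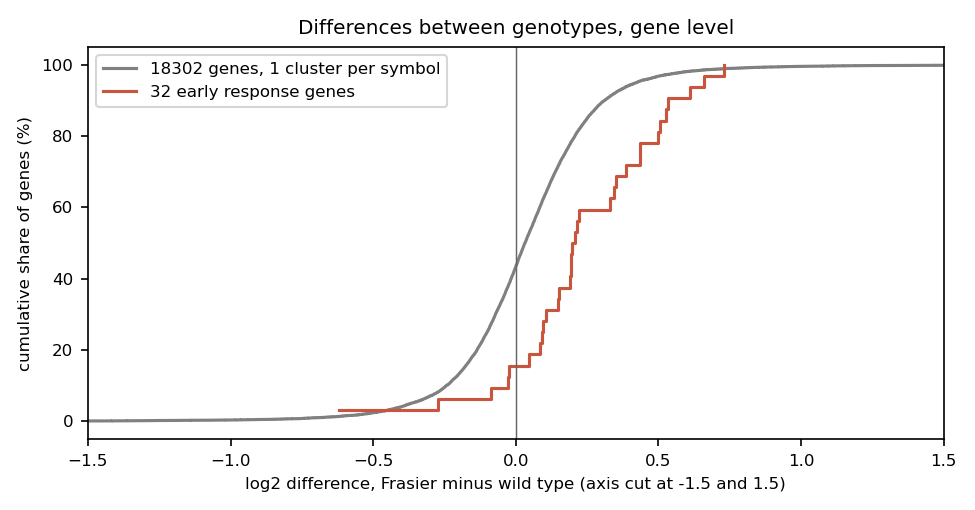
Cumulative share of genes (vertical axis, %) by log2 difference, Frasier minus wild type (horizontal axis), for the 32 early response genes and for 18302 genes with 1 cluster per symbol. The curve of the early response genes lies to the right of zero for 27 of 32 and crosses its middle at 0.20, against 0.032 for all genes.

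AP-1 is a dimer of a FOS and a JUN protein. Of the 4 FOS subunits, Fosl1 and Fosl2 had genotypes that did not overlap, and Fos and Fosb overlapped. Fosl1 (cluster 6867755), which encodes FRA1, a FOS protein that lacks the strong activating domain of FOS, stood at 5.41, 5.38, 5.42 and 5.27 on the wild-type arrays and at 6.31, 5.75, 5.63 and 5.92 on the Frasier arrays. Frasier replicate 1 was highest and the wild-type arrays lay close together. These are dim values. Every wild-type array lay below the median of all clusters on that array, 6.01 to 6.18, and so did Frasier replicates 2 to 4. The difference was 0.53 ± 0.15 (SE), or 1.45-fold (limma adjusted p = 0.166). Fosl2 (cluster 6929719), which encodes FRA2, stood at 9.34, 9.20, 9.32 and 8.95 in wild type and at 9.57, 9.45, 9.47 and 9.70 in Frasier, a difference of 0.35 ± 0.13 (limma adjusted p = 0.265). Wild-type replicate 4 was the lowest for both genes. Fos differed by 0.15 and Fosb by −0.03 (limma adjusted p = 0.601 and 0.949).

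None of the JUN subunits had genotypes that were apart. Junb (cluster 6983894), an AP-1 subunit that can restrain JUN, stood at 8.13, 7.93, 8.51 and 7.64 in wild type and at 8.51, 8.47, 8.36 and 8.42 in Frasier. The wild-type arrays spread over a range of 0.86 and the Frasier arrays over 0.14, and wild-type replicate 3 lay within the Frasier values. The difference of 0.39 ± 0.17 was not called (limma adjusted p = 0.357). Jun and Jund differed by 0.09 and 0.19 (limma adjusted p = 0.75 and 0.47).

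The role of EGR, NR4A and other early transcription factors had the highest median difference of the roles, 0.47. Its 8 genes were Egr1, Egr2, Egr3, Nr4a1, Atf3, Maff, Myc and Csrnp1, with single values from 0.05 (Nr4a1) to 0.73 (Maff). All 8 were positive and 6 did not overlap. Maff (cluster 6831891), a small MAF protein that pairs with other leucine zipper factors, had the largest positive difference of the group. It stood at 7.20, 7.06, 7.45 and 6.83 in wild type and at 7.76, 7.72, 7.81 and 8.16 in Frasier, a mean of 7.13 ± 0.26 (SD, n = 4) against 7.86 ± 0.20. Every Frasier array lay above every wild-type array, and Frasier replicate 4 was the highest. The difference of 0.73 ± 0.16 (SE) was 1.66-fold and had the lowest limma adjusted p of the group, 0.0824.

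Atf3 (cluster 6765218), a stress-induced repressor of the ATF and CREB family, stood at 10.29, 10.33, 10.36 and 10.22 in wild type and at 10.85, 10.66, 10.65 and 10.79 in Frasier. Both genotypes were tight, with SDs of 0.0607 and 0.0986, and the difference was 0.44 ± 0.11, or 1.35-fold (limma adjusted p = 0.105). Csrnp1 (cluster 6999449), a nuclear protein induced by AXIN1, stood at 7.78, 7.68, 7.81 and 7.51 in wild type and at 8.42, 8.02, 8.08 and 8.37 in Frasier. Frasier replicates 1 and 4 were the high arrays and wild-type replicate 4 the low one, with a difference of 0.53 ± 0.14 (limma adjusted p = 0.125). Its 2 AP-1 sites are those shown above.

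Among the EGR proteins, zinc finger factors induced by growth factors, Egr2 and Egr3 had genotypes apart and Egr1 did not. Egr3 (cluster 6820055) stood at 7.82, 7.74, 7.77 and 7.31 in wild type and at 8.47, 8.09, 8.07 and 8.45 in Frasier, a difference of 0.61 ± 0.16, or 1.53-fold (limma adjusted p = 0.131). Egr2 (cluster 6768479) stood at 8.58, 8.43, 8.53 and 8.22 in wild type and at 9.43, 8.73, 8.68 and 8.94 in Frasier, a difference of 0.50 ± 0.18 (limma adjusted p = 0.242). In both genes wild-type replicate 4 was lowest and Frasier replicate 1 highest. Egr1 differed by 0.09 (limma adjusted p = 0.756) and had the smallest wild-type SD of the group, 0.0357. Nr4a1, the orphan nuclear receptor NUR77, differed by 0.05 (limma adjusted p = 0.905). Myc, which drives growth and division, differed by 0.20 (limma adjusted p = 0.432), with no overlap.

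The clusters of the Krüppel-like factors Klf2, Klf4 and Klf6 differed by 0.21, −0.03 and 0.19, and all overlapped. Klf2 is known as the flow-induced factor of endothelium. Of the IER proteins, Ier5 (cluster 6763207), a regulator of heat shock factor 1 activity, stood at 6.41, 6.32, 6.36 and 6.49 in wild type and at 6.74, 6.83, 6.95 and 6.79 in Frasier. The genotypes were apart by a gap wider than the range of either, and here wild-type replicate 4 was the highest of the wild type. The difference was 0.43 ± 0.11, or 1.35-fold (limma adjusted p = 0.108). Ier2 and Ier3 differed by 0.09 and 0.19 and overlapped.

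The GADD45 proteins are small activators of the stress kinases p38 and JNK, and their 3 genes differed in sign. Gadd45b (cluster 6769255) stood at 8.45, 8.02, 8.21 and 7.74 in wild type and at 8.91, 8.55, 8.83 and 8.76 in Frasier. The lowest Frasier array lay just above the highest wild-type array, and the difference was 0.66 ± 0.16, or 1.58-fold (limma adjusted p = 0.114). Gadd45a, the member known as a p53 target, differed by −0.27 (limma adjusted p = 0.463), and Gadd45g by 0.10. Whether the 3 genes differ from each other was not tested.

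Of the phosphatases that switch off MAP kinases, Dusp5 and Dusp6 act on ERK, and Dusp1 acts mainly on p38 and JNK. Dusp5 (cluster 6870461), whose window above holds the paired CArG boxes, stood at 8.15, 8.04, 8.06 and 7.85 in wild type and at 8.94, 8.37, 8.28 and 8.50 in Frasier, a difference of 0.50 ± 0.16 (limma adjusted p = 0.200). Frasier replicate 1 was highest by a wide margin. Dusp6 differed by 0.22 without overlap (limma adjusted p = 0.386), and Dusp1 by −0.09 (limma adjusted p = 0.771).

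The other feedback regulators all had positive differences. Zfp36 (cluster 6966145), the protein tristetraprolin that targets AU-rich messenger RNAs for decay, stood at 9.86, 9.76, 9.88 and 9.65 in wild type and at 10.20, 10.15, 9.97 and 10.15 in Frasier, a difference of 0.33 ± 0.11 (limma adjusted p = 0.225). Rhob (cluster 6798795), a small GTPase found on endosomes, stood at 9.41, 9.39, 9.44 and 9.22 in wild type and at 9.84, 9.74, 9.76 and 9.53 in Frasier, a difference of 0.35 ± 0.12 (limma adjusted p = 0.215). In both genes 1 Frasier array came close to the highest wild-type array, replicate 3 for Zfp36 and replicate 4 for Rhob. Btg2, an antiproliferative partner of the CCR4-NOT deadenylase, differed by 0.15, and Socs3, an inhibitor of cytokine receptor signalling, by 0.21. Both overlapped.

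Hspa1a (cluster 6855067), the inducible heat shock protein 70, had the lowest difference of the group and the widest spread. It stood at 9.38, 10.12, 10.11 and 9.14 in wild type and at 9.00, 8.25, 9.30 and 9.72 in Frasier, a mean of 9.69 ± 0.50 (SD, n = 4) against 9.07 ± 0.62. Wild-type replicates 2 and 3 were high and Frasier replicate 2 was low, with the remaining arrays overlapping. The difference of −0.62 ± 0.33 (SE) had a 95% interval of −1.36 to 0.12 (limma adjusted p = 0.436). Its pooled SD lay at the 98.9th percentile of all genes.

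**Figure D2:**
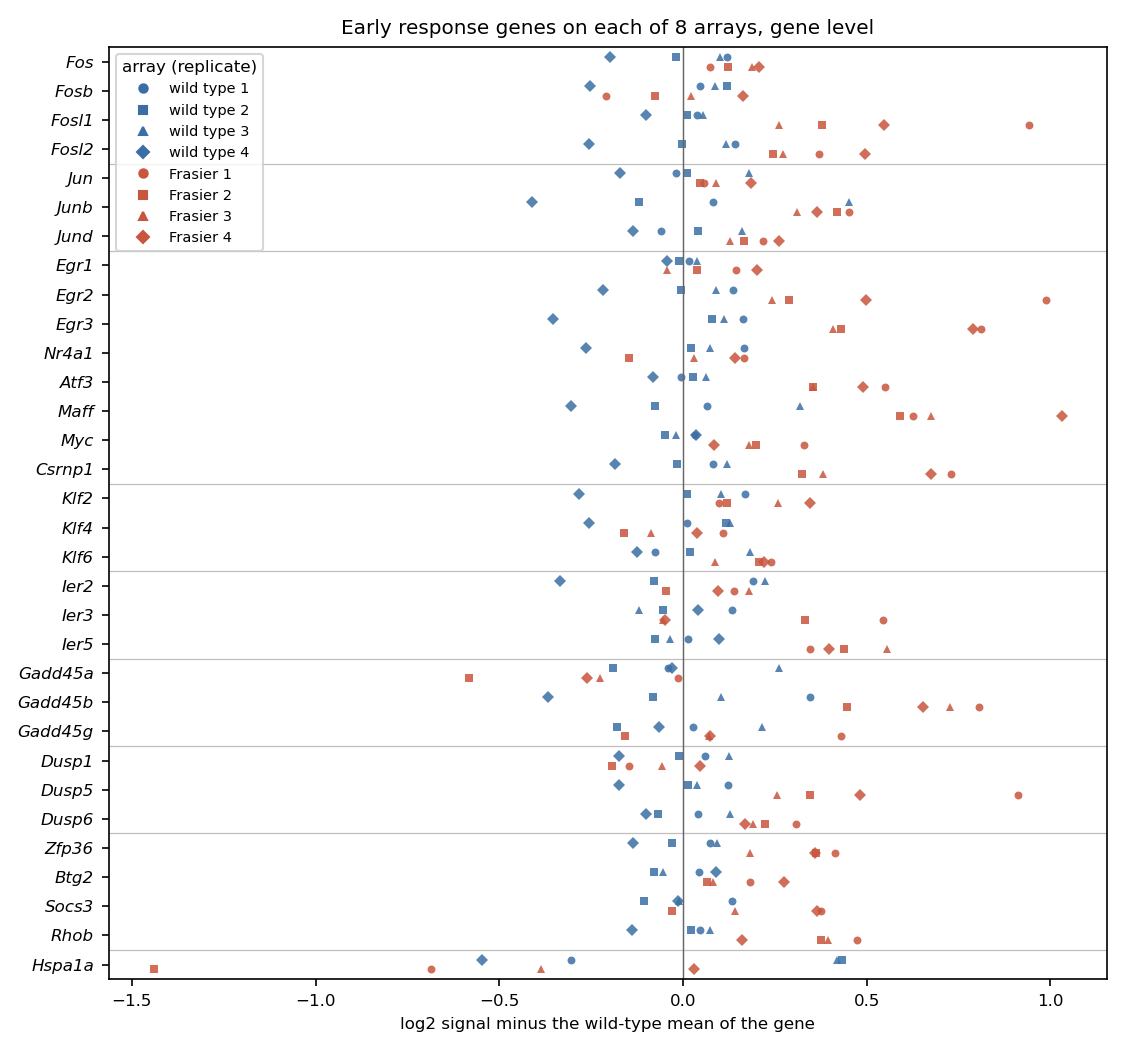
Log2 signal of each of the 32 genes on each of the 8 arrays (horizontal axis, minus the wild-type mean of the gene), grouped by role. Frasier arrays lie to the right of all wild-type arrays for 14 genes, wild-type replicate 4 is the leftmost wild-type point for 25 genes, and Hspa1a has its lowest point, Frasier replicate 2, far to the left.

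The median spread between arrays of a genotype was close to that of genes in general. The median SD over the 4 arrays was 0.140 in wild type and 0.120 in Frasier, against 0.150 and 0.131 over 18302 genes and 0.134 and 0.118 over the 9151 at or above the median level. An SD above the 90th percentile of all genes, 0.326 in wild type and 0.279 in Frasier, was found for 2 and 5 of the 32 genes. In Frasier the upper part of the group was wider than that of the 9151 genes. Its SD was 0.208 at the 75th and 0.296 at the 90th percentile, against 0.168 and 0.239. In wild type these were 0.187 and 0.261, against 0.196 and 0.271. Leaving out wild-type replicate 4 lowered the wild-type median SD to 0.0738. After Hspa1a, the largest pooled SDs were those of Egr2, Junb, Gadd45b, Maff and Egr3. Jund had the smallest Frasier SD, 0.0589. The SDs above rest on 4 arrays per genotype and were not tested.

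Arrays differed in the level of the group as a whole. The mean over the 32 genes was 9.03, 8.95, 9.08 and 8.79 on the wild-type arrays and 9.30, 9.08, 9.15 and 9.26 on the Frasier arrays. Wild-type replicate 3 and Frasier replicate 2 met at 9.08. Wild-type replicate 4 was the lowest wild-type array for 25 of the 32 genes, 78.1%, against 40.8% of 18302 genes and 61.5% of the 9151 at or above the median level. Frasier replicate 1 was the highest Frasier array for 19 genes, 59.4%, against 30.3% and 27.2%. Both held for 14 genes, among them Egr2, Egr3, Fosl1, Dusp5 and Gadd45b. Frasier replicate 4 was highest for 11 genes, 34.4%, against 10.9% of the genes at or above the median level, of which 41.6% were lowest on that array. Ier5, Myc and Btg2 went against this order, with wild-type replicate 4 the highest wild-type array.

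Both arrays that hold the extremes are those with a letter of their own. Without them, with 3 arrays per genotype, limma again called 0 of 32, with an unadjusted p under 0.05 for 8, all higher, against 7.41% higher among all genes, and a median difference of 0.16. The genotypes were then apart with Frasier above for 16 genes and below for 1, against 16.9% above among all genes in the same smaller set of arrays. The difference of Nr4a1 turned to −0.08, that of Ier2 to −0.04 and that of Gadd45g to −0.03.

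**Figure D3:**
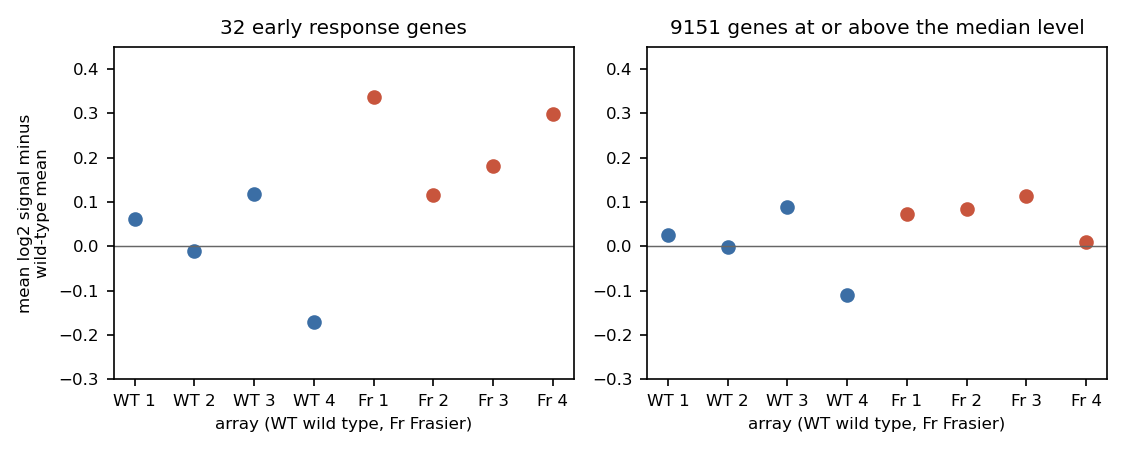
Mean log2 signal on each array (vertical axis, minus the wild-type mean) of the 32 early response genes (left) and of the 9151 genes at or above the median level (right). Wild-type replicate 4 is lowest in both panels, while Frasier replicates 1 and 4 are the highest arrays only for the early response genes.

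The exon-level table gives the same arrays per probe set, a region of an exon. It is not independent of the gene level, but it shows which regions of a gene carry a difference. Limma called 20 of 227 probe sets of the group, all of them higher in Frasier, against 2.35% higher and 1.22% lower among 192914 probe sets with 1 symbol and 2.67% of all 375483. The 20 lay in 12 genes, with 3 each in Atf3 and Gadd45b, 2 each in Egr2, Maff, Csrnp1 and Zfp36, and 1 each in Egr1, Nr4a1, Myc, Dusp5, Dusp6 and Socs3. Probe sets of a gene share its RNA and are not replicates. The difference was positive for 199 of the 227, with a median of 0.32, against 0.077 over all probe sets with 1 symbol.

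The call with the lowest adjusted p was in Atf3. Its probe set 4948304 stood at 8.82, 8.80, 9.34 and 8.67 in wild type and at 10.69, 10.02, 10.16 and 9.90 in Frasier, and rose by 1.28 ± 0.21 (SE, limma adjusted p = 0.0149). Wild-type replicate 3 was the highest of the wild type and still lay below every Frasier array. Csrnp1 probe set 4536369 stood at 8.21, 8.26, 8.29 and 7.52 in wild type and at 9.45, 9.00, 9.15 and 9.55 in Frasier, and rose by 1.22 ± 0.21 (limma adjusted p = 0.0176). When each array was left out in turn, both passed in 7 of 8 fits.

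Egr1, whose cluster differed by 0.09, had 1 probe set, 4306978, at 6.89, 6.90, 7.44 and 6.30 in wild type and at 8.77, 8.37, 7.94 and 8.37 in Frasier, which rose by 1.48 ± 0.25 (limma adjusted p = 0.0174). It passed in 6 of those 8 fits. Its 7 probe sets with a mean of 13.1 to 13.9 differed by −0.05 to 0.09, while the other 4 differed by 0.03 to 1.48. Egr2 probe set 4381811 stood at 9.63, 9.22, 9.74 and 8.54 in wild type and at 11.43, 10.63, 10.43 and 10.70 in Frasier and rose by 1.52 ± 0.29 (limma adjusted p = 0.0290). All 8 probe sets of Egr2 were higher in Frasier, by 0.51 to 1.52, and 2 passed.

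Maff probe set 5293754 stood at 8.02, 7.92, 8.32 and 7.23 in wild type and at 8.92, 9.04, 8.98 and 9.13 in Frasier, and rose by 1.15 ± 0.21 (limma adjusted p = 0.0252). All 9 probe sets of Maff had positive differences. Nr4a1 probe set 5493192 rose by 0.88 and Gadd45b probe set 4802707 by 0.91 (limma adjusted p = 0.0237 and 0.0218). The called probe sets of Dusp5, Zfp36, Socs3, Myc and Dusp6 rose by 0.57 to 0.98. The single calls in Myc, Dusp6 and Socs3 passed in 0 of the 8 fits. On the lower side, Hspa1a probe set 4438779 differed by −1.49 and Gadd45a probe set 5174740 by −0.68, and neither was called (limma adjusted p = 0.0889 and 0.124). Hspa1a probe sets 5344547 and 5447104 differed by −0.37 and −0.0011, so its cluster difference came mostly from probe set 4438779.

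The number of called probe sets depended on single arrays, both in the group and among all 375483. In the group it was 8, 2, 21 and 12 without wild-type replicates 1 to 4. Without Frasier replicates 1 to 4 it was 4, 9, 5 and 5. Among all probe sets it was 10035 with every array, and 4529, 3513, 9913 and 8478 without wild-type replicates 1 to 4. Without Frasier replicates 1 to 4 that total was 4820, 4091, 3556 and 5375. Without both arrays of a lone letter 6 of the group were called, against 5025 among all. The 6 lay in Atf3, Csrnp1, Egr1, Egr2 and Maff.

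The size of the difference went with the signal level of the probe set. Among 63 probe sets of the group with a mean under 8 the median difference was 0.49, among 54 from 8 to 10 it was 0.53, among 55 from 10 to 12 it was 0.37, and among 55 at 12 or more it was 0.11. Over all probe sets with 1 symbol the medians in those bins were 0.053, 0.12, 0.078 and 0.045. Atf3, Btg2, Dusp1, Egr1, Fosb, Jun and Nr4a1 have most of their probe sets in the brightest bin. In Atf3 the 5 probe sets of that bin differed by 0.14 to 0.68, with a median of 0.48, so a bright signal did not go with a small difference in every gene. In Nr4a1 the median difference was 0.13 over 7 probe sets of that bin and 0.44 over the other 6. Saturation of the brightest probes was not tested.

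**Figure D4:**
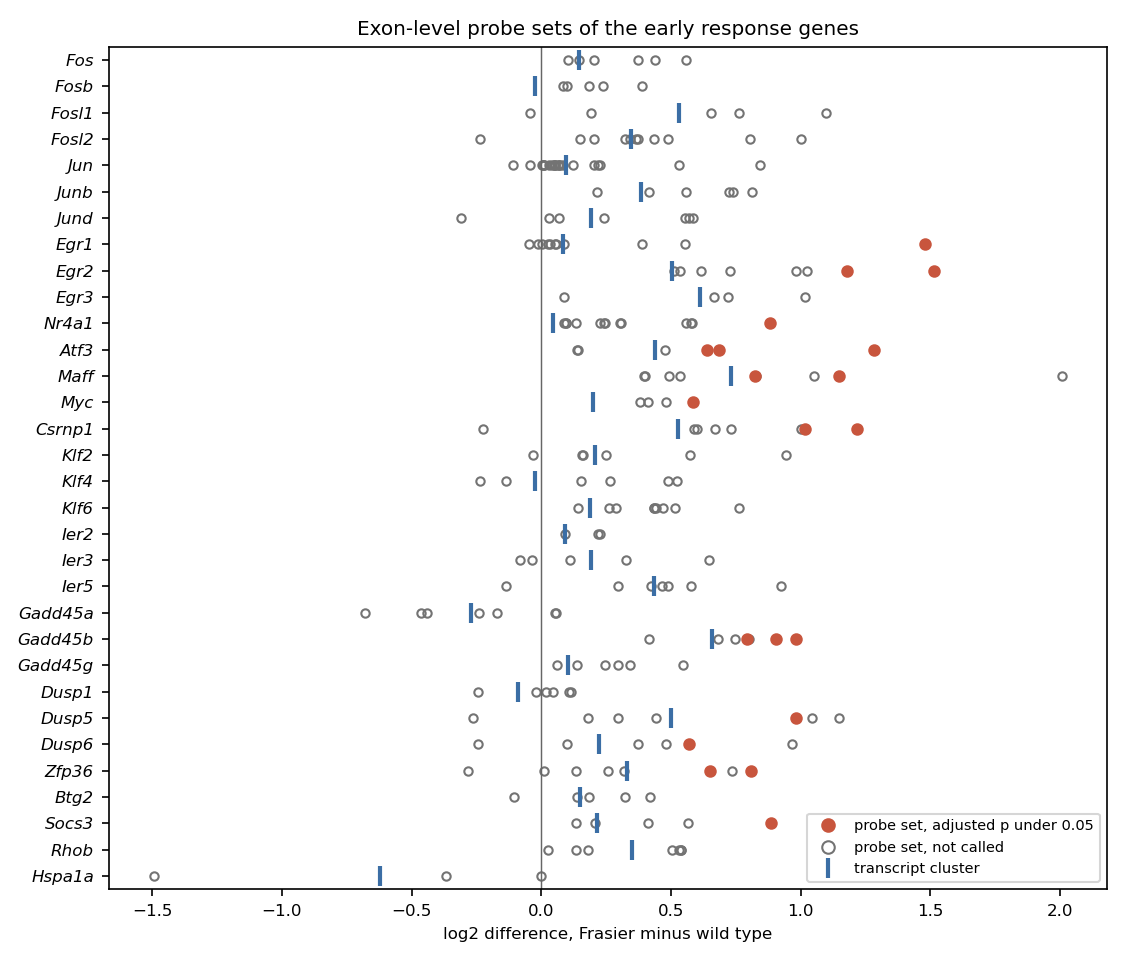
Log2 difference, Frasier minus wild type (horizontal axis), of each of the 227 exon-level probe sets of the 32 genes, with the difference of the gene's transcript cluster as a vertical bar. The 20 probe sets past an adjusted p of 0.05 are filled and all lie to the right of zero, and the clusters of Egr1, Nr4a1 and Dusp1 lie near zero.

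The value of a cluster need not be the mean of the probe sets with its symbol. The 2 were equal on all arrays, within 0.001, for 6 of the 32 genes (Fosl1, Ier3, Ier5, Zfp36, Rhob and Hspa1a) and for 21.1% of 17157 genes. Averaged over the arrays, the cluster minus that mean ran from −2.19 (Myc) and −2.17 (Klf6) to 0.51 (Dusp5). It was −1.85 for Btg2, −1.76 for Dusp6 and −1.75 for Nr4a1. All 9 probe sets of Klf6 and all 5 of Fosb had positive differences. Their means were 0.42 and 0.20, against cluster differences of 0.19 and −0.03. With each symbol set to the mean of its probe sets, limma called 14 of the 32 genes, all higher, against 2102 of 18513 genes, 11.4%. They were Fosl1, Junb, Egr2, Egr3, Atf3, Maff, Myc, Csrnp1, Klf6, Ier5, Gadd45b, Dusp5, Zfp36 and Rhob. This table has fewer rows to adjust over. With the deposited clusters of 1 symbol alone, limma called 6 (Egr3, Atf3, Maff, Csrnp1, Ier5 and Gadd45b), against 7.03% of genes.

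Genes of the same response outside the group were counted in the same gene-level fit. In that fit 1.45% of 18302 genes were called, and 10.8% were higher and 5.78% lower at an unadjusted p under 0.05. Of 19 other immediate early genes limma called 1, Ccn2, with a median difference of 0.29 and an unadjusted p under 0.05 for 10 higher and 1 lower. Ccn2, a matricellular target of YAP and SRF, stood at 9.73, 9.69, 10.09 and 9.78 in wild type and at 9.33, 8.77, 9.02 and 8.84 in Frasier and fell by 0.83 on the log2 scale (SE 0.16, limma adjusted p = 0.0476). With each array left out in turn it passed in 1 of 8 fits, that without Frasier replicate 1. Klf10, a TGF-beta-induced factor, differed by 0.57 without overlap (limma adjusted p = 0.0698).

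Of 14 components of the SRF, MAP kinase and CREB pathways limma called 0, with an unadjusted p under 0.05 for 1 and a median of 0.05. Srf differed by 0.23 and the kinase Rps6ka3 by 0.29. Of 11 further inhibitors of MAP kinase signalling limma called 0, with 3 at an unadjusted p under 0.05, all higher, and a median of 0.23. The phosphatases Dusp8 and Dusp2 differed by 0.78 and 0.52 (limma adjusted p = 0.0708 and 0.144), both without overlap.

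Of 11 heat shock genes and chaperones limma called 0, with 1 lower at an unadjusted p under 0.05 and a median of −0.18. The mean over the 11 was 8.75, 8.88, 8.99 and 8.67 on the wild-type arrays and 8.60, 8.51, 8.83 and 8.86 on the Frasier arrays. Like Hspa1a, it was lowest on wild-type replicate 4 and Frasier replicate 2 and highest in Frasier on replicate 4. The small heat shock protein Cryab differed by −0.49 (limma adjusted p = 0.162) and the mitochondrial chaperone Hspd1 by −0.27. Of 6 relatives in mRNA decay and growth control limma called 0, with 1 at an unadjusted p under 0.05, and Zfp36l2 and Cnot7 differed by 0.24 and 0.23. Of 6 further Krüppel-like factors limma called 0, with 1 higher and 1 lower at an unadjusted p under 0.05. Klf5 differed by 0.54 and Klf15 by −0.52 (limma adjusted p = 0.0790 and 0.0763).

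Markers of glomerular and other kidney cells moved with genotype too. Listed markers without a cluster of their own were not analysed here. The mean over 7 of 10 podocyte markers was 8.89 to 9.08 in wild type and 8.24 to 8.55 in Frasier, with Ptpro and Cdkn1c called lower. The mean over 10 endothelial markers was 9.17 to 9.36 and 8.82 to 8.90, with Ehd3 called lower. Array signals have no true zero, so the absence of a marker could not be read from them. Over 9 of 10 mesangial and smooth muscle markers the ranges overlapped, at 8.45 to 8.72 and 8.31 to 8.67, with 0 called by limma and 4 at an unadjusted p under 0.05.

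Markers of cells outside the filter went both ways. Over 9 proximal tubule markers the mean was 9.04 to 9.24 in wild type and 8.20 to 8.55 in Frasier, with Slc34a1, Slc5a2, Slc13a3, Dpep1 and Pdzk1 called lower. Over 7 nephron progenitor markers it was 7.17 to 7.30 and 7.75 to 7.95, with Six2, Eya1, Meox2 and Crym called higher, and over 5 of 6 parietal epithelial markers 8.28 to 8.63 and 8.90 to 9.17, with Krt19 called higher. Over 8 markers of the later tubule it was 9.02 to 9.19 and 8.79 to 9.14, with Hsd11b2 called higher. The other 7 of these had negative differences, 2 of them with an unadjusted p under 0.05, and the median was −0.19. Limma called 0 of 7 stromal markers (8.33 to 8.49 and 8.31 to 8.70), 0 of 9 leukocyte markers of 10 listed (6.69 to 6.89 and 6.52 to 6.65) and 0 of 4 erythroid markers of 7 listed (6.26 to 6.46 and 6.12 to 6.59), with 0, 3 and 0 at an unadjusted p under 0.05. The part of cell makeup in the differences of the early response genes was not tested.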

How the data were processed

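The authors deposited log2 signals of 8 exon arrays, summarised per transcript cluster (gene level) and per probe set (exon level). Per the submitters' processing notes they were made with RMA in Partek on the mouse build mm9, whose versions and settings the sources used here do not give. That the scale is log2 was read from the range of the values (3.72 to 14.4 at the gene level). RMA pulls dim probes together, so differences of dim genes are understated. Array data have no read depth, and the number of arrays limits the precision.

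Genotypes and replicate numbers came from the labels. Symbols came from the platform annotation (20707 clusters with 1 symbol, 1349 with several, 71567 with none), with 165 clusters updated through a RefSeq table of GRCm38.p6, a build other than the authors', which gave names and promoter windows only. The cluster of highest mean stood for a symbol.

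Differences are Frasier minus wild type, from limma 3.58.1 in R 4.3.3 (lmFit, eBayes, two-sided, Benjamini-Hochberg over all rows, threshold 0.05), with no filter, scaling or covariate added. Lists were counted, with no set test. A fold change is 2 to the power of the log2 difference. The fit was tested on simulated data, with 50 rows drawn at random from all rows and changed by each fold. Of clusters changed 1.5-, 2-, 4- and 8-fold (93623 rows) it found 6%, 48%, 90% and 98%. Of such probe sets (375483 rows) it found 0%, 24%, 68% and 90%.

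The 33 symbols and all lists were chosen with earlier results of these data known. Values on every array are given for the 12 genes of smallest p and the 6 of largest pooled SD. From other lists each called gene and the 2 of smallest p are named. Probe sets were described after their values were seen. Alternatives covered normalization, filters, blocks, array weights, the summary per symbol and leaving out arrays. Leaving out both arrays with a letter of their own was chosen after seeing the data.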

Additional observations from a re-analysis of the deposited data

Results flagged for a closer look

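Of 64 groups of 4 arrays examined, the 32 genes in each genotype, 1 held an array far from the others. Egr3 stood at 7.31 on wild-type replicate 4, against 7.74 to 7.82 on the other 3 wild-type arrays. Chance alone gives such a gap in about 1 of 20 groups. The same array was the lowest of the wild type for 25 of the 32 genes.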

How the results depend on the processing

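With 4 arrays per genotype the precision is limited, saturation of bright probes and cell makeup were not tested, and the letter of the sample code cannot be told apart from genotype. The gene level gave 774 clusters, and the exon level 10035 probe sets. The main fit did not pair arrays by replicate number. Deviations of same-numbered arrays correlated at −0.0048, 0.069, 0.263 and 0.204, and those of differently numbered arrays at −0.256 to 0.199. Whether the numbers mark pairs was not tested. With the replicate number as a block limma called 185 clusters and 0 of the 32 genes, 7859 probe sets and 14 of the group. With the letter as a random block it called 258 clusters, 2831 probe sets and 4 of the group. Without both arrays of a lone letter it called 368 clusters, 5025 probe sets and 6 of the group. Array weights gave 1311 clusters. Trend and robust options called 1 gene, Atf3, against 1.91% of all genes, and 16875 of 375483 probe sets, 47 of the group. With rows at or above the median level 1199 clusters and 3 genes of the group were called, against 3.34% of genes. At the exon level that setting called 11805 of 187742 probe sets, 31 of 195 in the group. With 1-symbol rows 1408 clusters and 6 genes of the group were called, against 7.03% of genes. At the exon level they gave 12209 of 192914 probe sets, 37 of the group. The mean of all clusters of a symbol gave 1384 calls and 9 genes of the group, against 7.56% of genes. The mean of probe sets gave 2102 and 14 of the group, against 11.4% of genes. In that fit 23 of the group had an unadjusted p under 0.05 and 22 had no overlap, with a median of 0.35. All genes in that fit had 20.9% higher at that p, 15.5% above and a median of 0.068. Leaving out 1 array gave 268 to 758 clusters, 0 genes, 3513 to 9913 probe sets and 2 to 21 of the group, with a median difference of 0.18 to 0.24. The wild-type median SD ran from 0.0738 to 0.165 and was 0.211 with median centring. Genes near zero turned sign. Fosb ran from −0.11 to 0.035 when 1 array was left out, and had 0.063 with repeated quantile normalization, 0.011 with median centring and 0.20 with the mean of probe sets. Klf4 ran from −0.11 to 0.020, and had 0.0060 with the letter block, 0.012 with median centring and 0.18 with probe sets. Nr4a1 ran from −0.041 to 0.11, and had −0.024 with array weights and −0.081 without the lone letters. Ier2 ran from −0.020 to 0.17 and Gadd45g from −0.0042 to 0.19, and they had −0.036 and −0.026 without the lone letters. Dusp1 had 0.0045 with probe sets. None was called. Fewer rows are adjusted over in the filtered tables and fewer arrays enter the smaller sets. The cause of the other moves was not tested.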

Other observations

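Early cytokine and stress genes outside the 33 symbols were counted in the same gene-level fit. Among all 18302 genes 56.6% had positive differences and 1.45% were called. At an unadjusted p under 0.05, 10.8% were higher and 5.78% lower. All 14 genes of the cytokine and NF-kB list had positive differences, with a median of 0.48, and 9 had an unadjusted p under 0.05. Limma called 2 of the 14 higher, Cxcl2 and Bcl3. Cxcl2, a chemokine that draws neutrophils, stood at 7.13, 7.04, 7.18 and 7.05 in wild type and at 7.86, 7.70, 7.66 and 7.78 in Frasier and rose by 0.65 ± 0.10 (SE, n = 4 per genotype, limma adjusted p = 0.0267). Bcl3, a nuclear partner of NF-kB, stood at 6.11, 5.99, 6.16 and 6.09 in wild type and at 6.73, 6.74, 6.66 and 6.69 in Frasier and rose by 0.62 ± 0.10 (limma adjusted p = 0.0275). The genotypes lay apart in both genes. With each array left out in turn both passed in 1 of 8 fits, that without wild-type replicate 4.

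Of 11 genes of the unfolded protein and integrated stress responses limma called 0, with 5 at an unadjusted p under 0.05, all higher, and a median of 0.20. Asns, asparagine synthetase, and Sesn2, both targets of ATF4, differed by 0.55 and 0.51 without overlap (limma adjusted p = 0.0817 and 0.126). Of 10 p53 targets limma called 1, with a median of 0.14. Pmaip1, the pro-apoptotic protein NOXA, stood at 5.56, 5.90, 5.19 and 5.36 in wild type and at 7.10, 7.73, 7.68 and 7.19 in Frasier and rose by 1.92 ± 0.20 (limma adjusted p = 0.00434), and it passed in 8 of 8 such fits. The cell cycle inhibitor Cdkn1a differed by 0.36 (limma adjusted p = 0.235). Of 8 oxidative stress genes limma called 0, with 1 higher and 2 lower at an unadjusted p under 0.05. Mt1, a metallothionein, differed by −0.55 and Nqo1, a quinone reductase, by 0.38 (limma adjusted p = 0.173 and 0.209).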
